A study of Homo sapiens with 14 samples.

Results

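The control libraries of this series are MCF-10A cells carrying 1 of 2 empty retroviral vectors, and the comparison described here sets the empty pMSCV Puro vector against the empty pMSCV Hygro vector. Of the 14 libraries, 4 were used: Hygro 1 and Hygro 2, and Puro 1 and Puro 2. MCF-10A is a non-tumour human mammary epithelial cell line. All 4 libraries came from cells harvested 2 days after retroviral infection, and neither group carried an introduced gene. The other 10 libraries, 2 in each group, hold cells with YAP 5SA, MRTFB dN, MRTFB dN dPY, MRTFB dN Y305A or MRTFB dN Y305A/dPY and give the spread and the context. The labels do not state whether drug selection was applied, nor whether the replicates were separate cultures, so p-values measure only the spread between these samples, which may be technical. The loci compared were those with a gene name and at least 1 FPKM (a fragment count divided by gene length and library size) in at least 2 of the 4 vector libraries: 11974 of 34071 loci in the deposited table, of which 27543 have a name.

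MCF-10A cells express a mixture of basal and luminal markers and can follow the squamous programme of stratified epithelia. In that programme, basal cells leave the cell cycle, exchange basal keratins for suprabasal ones, make the proteins of the cornified envelope and secrete kallikreins, the serine proteases that cut the contacts between shed cells. Mitotic genes peak late in the cell cycle, while genes of DNA replication are made earlier, and CDKN1A, which encodes the inhibitor p21, restrains both.

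The epithelial markers that define the line were present in all 4 libraries: KRT5, KRT17, KRT8 and CDH1 were each at 79.3 FPKM or more, EPCAM ranged from 45.2 to 210 FPKM and TP63 from 3.55 to 10.4 FPKM. The 7 endothelial markers were each under 1 FPKM in all 4 libraries, with summed levels of 0.417 and 0.168 FPKM in Hygro and 0.573 and 0.526 FPKM in Puro. Of 9 leukocyte markers, 5 were under 1 FPKM in all 4 libraries. YAP1, whose activated form is one of the introduced genes, was at 32.4 and 23.3 FPKM in Hygro and 19.2 and 19.5 FPKM in Puro (adjusted p = 0.385, limma). MKL2, the gene of MRTFB, was at 4.57 and 3.06 FPKM in Hygro and 6.60 and 3.66 FPKM in Puro (adjusted p = 0.610, limma).

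Puro 1 stands apart from the other 13 libraries. It had 4780 unnamed loci at 1 FPKM or more, against 211 to 669 in the others, and these took 58.8% of its FPKM sum. Its depth, estimated from the ratio of low values, was 0.315 of that of Hygro 1, against 0.798 for Hygro 2 and 0.790 for Puro 2. The Puro pair differed by more than 1 on the log2(FPKM + 1) scale at 2253 tested loci (18.8%), and the Hygro pair at 1317 (11%). Calls were therefore made with and without Puro 1. A locus is said to hold where it passed both fits in the same direction, and Puro 2 alone is then assumed to vary like the other groups.

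With limma on log2(FPKM + 1) and Benjamini-Hochberg adjustment over the 11974 loci, 772 loci (6.45%) were higher in Puro and 1209 (10.1%) were lower at adjusted p under 0.05. Without Puro 1, 476 (3.98%) were higher and 558 (4.66%) lower. The loci that held were 324 higher (2.71%) and 468 lower (3.91%), and no locus called with Puro 1 changed sign without it. Both Puro libraries were above both Hygro libraries at 2827 loci (23.6%) and below both at 3838 (32.1%). Of the tested loci, 501 reached 1 FPKM in both Puro libraries and in neither Hygro library, and 122 the reverse. They entered the test through 1 group alone, which fixes their direction and lack of overlap. Among the 122 are OLFML3, KLK11, KLK14, KRT12, KRT78, IGFBP3, MMP7 and OSGIN1. Among the 501 are LAPTM5, EREG, TWIST1, PVT1, a second EGFR locus and a locus named KMT2A. A fit on the 4 vector libraries alone, without the spread of the other groups, called 7 loci higher and 7 lower. Of these 14 loci 9 are short RNA loci, where a small number of reads gives a large FPKM, and the other 5 are IVL, KRT12, ADGRF1 and OLFML3 (lower) and LAPTM5 (higher). The balance of higher and lower calls depends on the scaling: it was 928 to 930 after scaling by the median of ratios, 491 to 658 after a scaling that follows expression level, and 2553 to 256 after scaling the tested loci to the same sum, which moved the median difference from -0.11 to 0.63.

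The difference between the vectors depended on expression level. Loci with a mean under 3 FPKM had a median difference (log2 of FPKM + 1, Puro minus Hygro) of 0.33, those between 10 and 30 FPKM of -0.35, and those above 300 FPKM of -1.18. Without Puro 1 the same medians were 0.21, -0.26 and -0.73, so the slope was smaller but kept its direction. The median of the loci of like level, with all libraries, is given below beside list medians. From the band of 3 to 10 FPKM upwards it was 0.05, -0.35, -0.63, -0.81 and -1.18. Without Puro 1 the same bands gave -0.04, -0.26, -0.39, -0.45 and -0.73, which belong beside list medians without Puro 1.

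**Figure D1:**
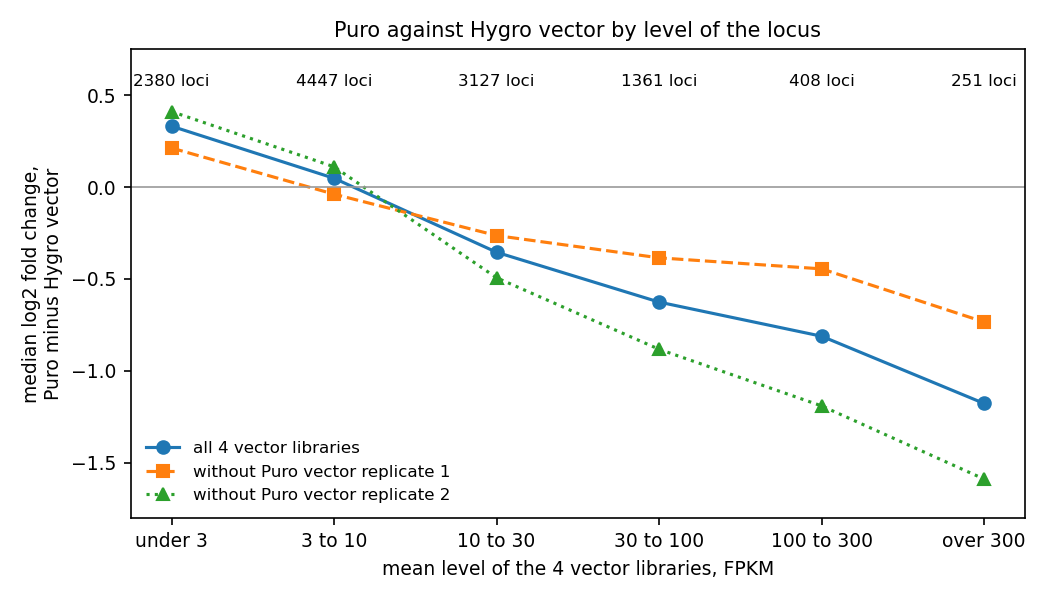
Median difference between Puro and Hygro libraries (log2 of FPKM + 1) on the vertical axis against the mean FPKM of the 4 vector libraries in bands on the horizontal axis, with all libraries and without Puro 1 or Puro 2. The median runs from 0.33 in the lowest band to -1.18 in the highest, and is shallower without Puro 1 and steeper without Puro 2.

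Genes of squamous differentiation were lower in Puro than in Hygro. All 7 kallikrein loci tested were lower and 6 of them held, against 10.1% and 3.91% of all tested loci. Their median difference was -3.98 (-5.05 without Puro 1) against -0.63 (-0.39) for loci of like level. KLK7, the chymotrypsin-like kallikrein of stratified epithelia, was at 1032 and 267 FPKM in Hygro and at 25.1 and 1.21 FPKM in Puro. The groups did not overlap, although the libraries of each group were far apart. The difference was -6.11 ± 1.23 (SE, adjusted p = 0.0130, limma) and -7.89 without Puro 1 (adjusted p = 0.0126). KLK5, a trypsin-like kallikrein, was at 178 and 29.2 FPKM in Hygro and 4.29 and 0.104 FPKM in Puro. KLK6 was at 54.7 and 17.5 FPKM in Hygro and 2.74 and 0.137 FPKM in Puro, a difference of -3.96 ± 0.57 (SE, adjusted p = 0.00425, limma). In all of these Hygro 1 was the highest library and Puro 2 the lowest. KLK11 was at 2.12 and 1.27 FPKM in Hygro and is listed at 0 in both Puro libraries. KLK14 was at 1.34 and 1.87 FPKM in Hygro and 0.163 and 0.196 FPKM in Puro. KLK11 and KLK14 reached the 1 FPKM needed for testing in Hygro only, so their direction was fixed by the filter. The list names 10 kallikrein genes, of which 2 were under 1 FPKM in all 4 libraries. KLK8 and KLK9 share 1 locus and cannot be separated.

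KLK6 and KLK11 passed without each of the 4 libraries in turn and under the 3 other scalings. Without Hygro 1, 3 of the 7 loci passed (KLK6, KLK11 and KLK14) and the median was -3.18, and KLK7, KLK5, KLK10 and the KLK8 and KLK9 locus did not pass. The summed FPKM of the 7 loci was 1555 and 430 in Hygro and 51.2 and 3.82 in Puro, against 0.617 to 25.2 in the other 10 libraries. Each of the 7 loci was higher in both Hygro libraries than in any of those 10, a position held by 4.73% of all tested loci. KLK11 and KLK14 are among the 7 and were tested through their Hygro levels alone. Puro 2 lay within the range of the other libraries and Puro 1 above it. In bulk RNA, fewer cells of a type and less RNA per cell cannot be told apart.

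Suprabasal and activation keratins followed the same order. Of 10 tested loci 7 were lower and 6 held, against 10.1% and 3.91% of all tested loci. Their median was -2.63 (-3.61 without Puro 1) against -0.35 (-0.26) for loci of like level. Without Hygro 2, 3 of the 10 were lower. KRT10, the type I keratin of suprabasal cells, was at 77.7 and 140 FPKM in Hygro and 17.5 and 3.72 FPKM in Puro, a difference of -3.50 ± 0.54 (SE, adjusted p = 0.00611, limma). The locus of KRT6A, KRT6B and KRT6C, near-identical keratins of activated epithelium whose reads cannot be assigned singly, was at 2204 and 4300 FPKM in Hygro and 256 and 243 FPKM in Puro. Its difference was -3.62 ± 0.58 (SE, adjusted p = 0.00645, limma). KRT78 was at 3.21 and 6.56 FPKM in Hygro, at 0.110 FPKM in Puro 1 and at 0 in Puro 2. In these 3 loci the groups did not overlap, and each passed without every library in turn and under the 3 other scalings. KRT78 reached 1 FPKM in Hygro only, so its direction and lack of overlap were fixed by the filter.

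KRT80 was lower too, at 5.96 and 9.59 FPKM in Hygro and 0.451 and 1.44 FPKM in Puro, but not without Hygro 2. The locus of KRT14 and KRT16, a basal and an activation keratin counted together, was at 1539 and 1843 FPKM in Hygro and 133 and 31.0 FPKM in Puro (difference -4.69 ± 1.06, SE, adjusted p = 0.0185, limma). It held without Puro 1 but did not pass without Hygro 2 or without Puro 2. KRT13, a suprabasal keratin of wet epithelia, was at 306 and 234 FPKM in Hygro and 84.3 and 7.21 FPKM in Puro. It did not pass with all libraries (adjusted p = 0.0622, limma) and passed without Puro 1 (adjusted p = 0.0322). A locus named KRT12, a name that another locus shares, was at 41.7 and 14.5 FPKM in Hygro and is listed at 0 in both Puro libraries. It reached 1 FPKM in Hygro only, which fixed its direction.

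Of 17 tested cornified envelope genes 7 were lower and 4 held, against 10.1% and 3.91% of all tested loci. Their median was -1.74 (-2.37 without Puro 1) against -0.63 (-0.39) for loci of like level. Involucrin (IVL), an early scaffold protein of the envelope, was at 43.1 and 47.7 FPKM in Hygro and 2.43 and 1.13 FPKM in Puro. Another locus shares the name IVL, and the values are those of 1 locus. The replicates were close in both groups and the groups did not overlap. The difference was -4.10 ± 0.46 (SE, adjusted p = 0.00183, limma) and passed under every alternative tried, the fit on 4 libraries included. SLPI, a secreted protease inhibitor, was at 7304 and 5068 FPKM in Hygro and 1824 and 1178 FPKM in Puro (difference -2.05 ± 0.54, SE, adjusted p = 0.0290, limma). It did not pass without Hygro 1, without Hygro 2 or without Puro 2. The locus of TGM1, the crosslinking enzyme of the envelope, with DHRS1 and RABGGTA, was at 134 and 138 FPKM in Hygro and 67.0 and 46.4 FPKM in Puro, and did not pass without Hygro 2.

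The list was not uniform. SPRR1B, a small proline-rich envelope protein, was at 16.2 and 260 FPKM in Hygro and 55.6 and 7.17 FPKM in Puro, so the groups overlapped and the replicates of both groups were far apart (adjusted p = 0.348, limma, and 0.183 without Puro 1). SPRR3 was at 1.91 and 12.5 FPKM in Hygro and 7.4 and 0.175 FPKM in Puro, with the same overlap. It did not pass with all libraries (adjusted p = 0.385, limma) and was lower without Puro 1 (difference -2.42, adjusted p = 0.0490). The count of lower envelope genes was 7 of 17 with the deposited scaling and 2 of 17 after scaling to the same sum or by expression level, with the median at -0.97 and -1.68. All tested loci had medians of 0.63 and 0.01 under these scalings. Without Hygro 2, 3 were lower.

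Of 11 loci of S100 genes, small calcium-binding proteins, 4 were lower and S100P held, against 10.1% and 3.91% of all tested loci. Their median was -1.45 (-0.84 without Puro 1) against -1.18 (-0.73) for loci of like level. S100P was at 4022 and 2555 FPKM in Hygro and 1143 and 655 FPKM in Puro (difference -1.89 ± 0.50, SE, adjusted p = 0.0303, limma), and of the fits without 1 library it passed only that without Puro 1. S100A10, S100A11 and S100A16 were lower with all libraries and not without Puro 1. Without Hygro 2 none of the 11 passed. S100A8, a protein of inflamed epithelium, was at 189 and 308 FPKM in Hygro and 265 and 338 FPKM in Puro (adjusted p = 0.868, limma). Its partner S100A9 was at 753 and 1021 FPKM in Hygro and 1050 and 972 FPKM in Puro (adjusted p = 0.741, limma). For both, the groups overlapped.

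The 150 bases before the RefSeq start of IVL (GRCh38.p14, chr1:152908396-152908545, plus strand) are shown because IVL is the member of the squamous lists that passed every fit. Capitals mark TGAGTCA, the core site of AP-1 factors, which lies 123 bases before the start.
IVL: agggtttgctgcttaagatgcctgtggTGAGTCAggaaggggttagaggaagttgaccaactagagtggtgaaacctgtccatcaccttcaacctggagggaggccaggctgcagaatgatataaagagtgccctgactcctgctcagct
In the window from 250 bases before to 50 after the start, TGAGTCA on either strand was found in 9 of the 19 cornified envelope promoters with a sequence (47.4%), in 1 of 7 suprabasal keratin promoters (14.3%) and in none of 9 kallikrein promoters, against 4.9% of 27305 promoters in the RefSeq table. A match is a description of letters, not of binding. These coordinates belong to another build than the hg19 of the deposited table.

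**Figure D2:**
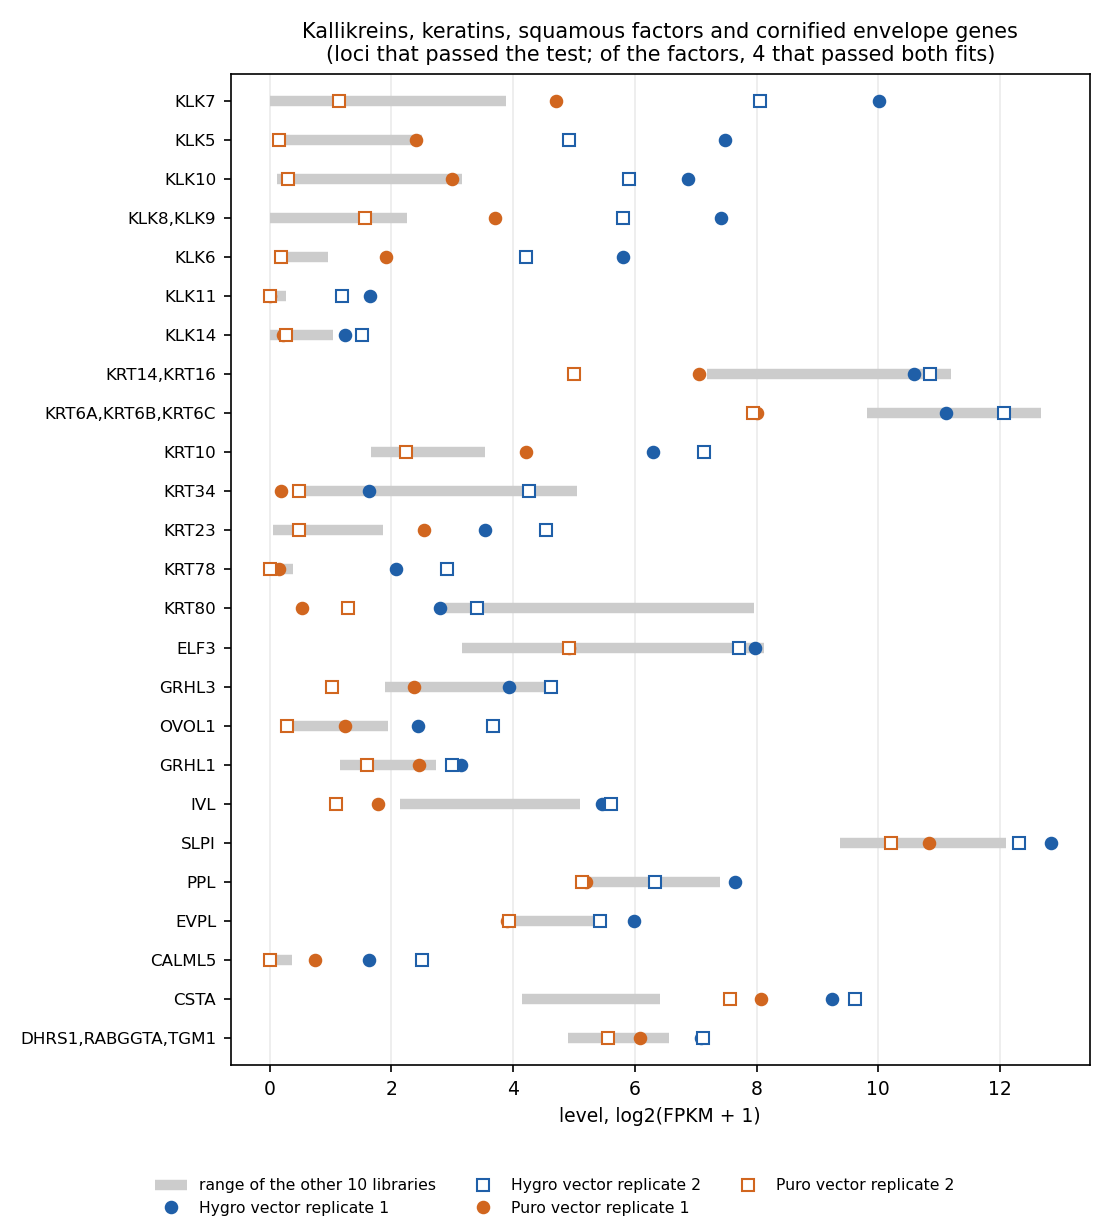
Level as log2(FPKM + 1) on the horizontal axis for the kallikreins, keratins and cornified envelope genes that passed the test and 4 squamous factors that passed both fits, 1 line per locus and 1 point per vector library, with a grey bar for the range of the other 10 libraries. IVL, KRT10 and KLK7 are lower in both Puro libraries than in both Hygro libraries, with KLK7 between 1.21 and 25.1 FPKM in Puro and at 267 FPKM or more in Hygro.

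Transcription factors of squamous differentiation were lower in 8 of 17 cases, 6 of which held, against 10.1% and 3.91% of all tested loci. Their median was -0.74 (-1 without Puro 1) against -0.35 (-0.26) for loci of like level. ELF3, an epithelial ETS factor, was at 250 and 209 FPKM in Hygro and 29.1 and 29.3 FPKM in Puro, a difference of -2.92 ± 0.38 (SE, adjusted p = 0.00372, limma). OVOL1, a zinc-finger factor of differentiating keratinocytes, was at 4.40 and 11.8 FPKM in Hygro and 1.35 and 0.214 FPKM in Puro. Both passed without each library in turn and under the 3 other scalings. GRHL3, a Grainyhead factor that drives barrier genes, was at 14.3 and 23.5 FPKM in Hygro and 4.19 and 1.04 FPKM in Puro, and did not pass without Hygro 2. GRHL1, a related factor, held as well, at 7.82 and 6.97 FPKM in Hygro and 4.45 and 2.03 FPKM in Puro, but of the fits without 1 library it passed only that without Puro 1. After scaling to the same sum 3 of the 17 were lower, and without Hygro 1, without Hygro 2 or without Puro 2, 4 were.

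Some lower genes lay outside these lists. A2ML1, a secreted protease inhibitor of the cornified layer, was at 114 and 38.4 FPKM in Hygro and 8.37 and 0.685 FPKM in Puro (difference -4.08 ± 0.78, SE, adjusted p = 0.0110, limma). IL1RN, the interleukin 1 receptor antagonist, was at 91.3 and 49.3 FPKM in Hygro and 7.44 and 1.28 FPKM in Puro (difference -3.96 ± 0.71, SE, adjusted p = 0.00937, limma). ADGRF1, an adhesion receptor, was at 37.4 and 26.3 FPKM in Hygro and 1.38 and 0.371 FPKM in Puro. In all 3 every Puro value lay below every Hygro value and Puro 2 was the lowest, and all 3 passed without each library in turn. IL1A, the agonist that IL1RN opposes, was higher in Puro, at 4.46 and 4.19 FPKM in Hygro and 13.8 and 24.8 FPKM in Puro (adjusted p = 0.0239, limma), and of the fits without 1 library it passed only that without Puro 1.

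Basal markers were split. KRT5, the basal type II keratin, was at 2161 and 5084 FPKM in Hygro and 554 and 598 FPKM in Puro (difference -2.52 ± 0.52, SE, adjusted p = 0.0141, limma), and did not pass without Hygro 2. TRIM29, an epithelial protein coexpressed with p63, was at 283 and 293 FPKM in Hygro and 64.1 and 36.7 FPKM in Puro (difference -2.55 ± 0.40, SE, adjusted p = 0.00611, limma). TP63, the basal master regulator, was higher in Puro, at 3.55 and 5.74 FPKM in Hygro and 10.4 and 9.20 FPKM in Puro. Its difference of 0.96 passed with all libraries (adjusted p = 0.0333, limma) and not without Puro 1 (adjusted p = 0.106). Of the 16 basal genes 2 were higher and 5 lower, against 6.45% and 10.1% of all tested loci. Of the lower calls 4 held, against 3.91%. The list median was -0.55 with all libraries against -0.81 for loci of like level, and 0.16 without Puro 1 against -0.45. It was 0.31 after scaling to the same sum and 0.30 after scaling by expression level, where all tested loci had 0.63 and 0.01.

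Luminal genes gave 3 lower calls among 12, with 2 that held, against 10.1% lower over all tested loci. The list median was -1.30 (-1.32 without Puro 1) against -0.63 (-0.39) for loci of like level. After scaling to the same sum or by expression level 1 gene was higher and 1 lower. CD24, a surface mucin-like protein, was at 1410 and 901 FPKM in Hygro and 114 and 63.7 FPKM in Puro (difference -3.71 ± 0.81, SE, adjusted p = 0.0183, limma), and of the fits without 1 library it passed only that without Puro 1. GATA3, a luminal factor, was at 11.4 and 7.43 FPKM in Hygro and 4.18 and 3.13 FPKM in Puro, and did not pass without Hygro 1 or without Puro 2. Junction genes were lower in 11 of 24 cases, of which JUP, OCLN and DSC2 held, against 10.1% and 3.91% of all tested loci. Their median was -1.14 (-1.17 without Puro 1) against -0.63 (-0.39) for loci of like level. Without Hygro 2, 1 of the 24 was lower, after scaling to the same sum 3 were lower and 2 higher, and after scaling by expression level 5 were lower with a median of -0.48. CDH1 (E-cadherin) was at 229 and 223 FPKM in Hygro and 79.3 and 94.4 FPKM in Puro and passed with all libraries and without Puro 2, but not without Puro 1 (adjusted p = 0.0327 with Puro 1 and 0.108 without it, limma).

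Mitotic genes were higher in Puro by the list median, although the summed levels of the groups overlapped. Of 38 tested loci 10 were higher, none was lower and 5 held, against 6.45% higher and 2.71% held higher over all tested loci. The median difference was 1.08 (1.26 without Puro 1) against -0.35 (-0.26) for loci of like level. Summed FPKM was 224 and 546 in Hygro and 524 and 864 in Puro, so Hygro 2 was above Puro 1. Both Puro libraries were above both Hygro libraries at 22 of the 38 loci, a position held by 23.6% of all tested loci. The promoters of 3 loci that held are shown first, because motifs known from late cell cycle genes lie in them. Each run is the 150 bases before the RefSeq start on GRCh38.p14: CENPF at chr1:214603045-214603194 (plus strand), ASPM at chr1:197146670-197146819 (minus strand) and KIF23 at chr15:69414199-69414348 (plus strand). Capitals mark CCAAT boxes (CCAAT, or ATTGG where on the other strand) and the cell cycle homology region (TTTGAA, or TTCAAA where on the other strand).
CENPF: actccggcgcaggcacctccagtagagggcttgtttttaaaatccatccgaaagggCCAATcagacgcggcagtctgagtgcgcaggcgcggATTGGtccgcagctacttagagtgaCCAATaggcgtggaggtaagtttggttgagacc
ASPM: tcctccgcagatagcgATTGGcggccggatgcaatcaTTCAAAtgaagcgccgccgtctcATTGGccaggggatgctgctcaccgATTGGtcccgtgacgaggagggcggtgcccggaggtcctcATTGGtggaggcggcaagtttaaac
KIF23: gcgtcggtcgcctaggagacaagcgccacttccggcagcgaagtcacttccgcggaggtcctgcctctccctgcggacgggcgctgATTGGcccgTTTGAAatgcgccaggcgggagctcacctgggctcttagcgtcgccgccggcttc
CCAAT starts 94, 58 and 33 bases before the CENPF start, where no homology region lies in these 150 bases. Of 31 mitotic promoters with a sequence, 23 (74.2%) held TTTGAA or TTCGAA on either strand in the 300 bases around the start, against 16.6% of all promoters, and 25 (80.6%) held CCAAT, against 35.7%.

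CENPF, a kinetochore protein made late in the cell cycle, was at 2.79 and 4.46 FPKM in Hygro and 23.7 and 17.7 FPKM in Puro. ASPM, which focuses spindle poles, was at 2.44 and 3.06 FPKM in Hygro and 18.2 and 19.4 FPKM in Puro. CENPE, a kinetochore motor, was at 1.18 and 1.82 FPKM in Hygro and 6.31 and 6.20 FPKM in Puro. In these 3 genes the replicates were close and the groups far apart. The differences were 2.24 ± 0.37 for CENPF (SE, adjusted p = 0.00713, limma), 2.40 ± 0.40 for ASPM (SE, adjusted p = 0.00720, limma) and 1.55 ± 0.31 for CENPE (SE, adjusted p = 0.0130, limma). All 3 passed without each library in turn and under the 3 other scalings. The other loci that held were TTK, a spindle checkpoint kinase, and the locus of KIF23, a motor of cytokinesis, with PAQR5, and neither passed without Hygro 1 or without Puro 2.

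For much of the list the Hygro replicates differed. TOP2A, the topoisomerase that untangles chromosomes, was at 4.98 and 10.7 FPKM in Hygro and 28.8 and 29.9 FPKM in Puro. It passed with all libraries (difference 1.86 ± 0.56, SE, adjusted p = 0.0442, limma) but not when any 1 of the 4 libraries was left out. MKI67, the proliferation antigen, was at 4.73 and 8.13 FPKM in Hygro and 17.3 and 15.3 FPKM in Puro and did not pass (adjusted p = 0.0600, limma). CDK1 was at 6.56 and 17.6 FPKM in Hygro and 17.4 and 35.9 FPKM in Puro, and CCNB1, its cyclin, at 9.08 and 23.9 against 21.1 and 46.0 FPKM. For both, Hygro 2 was above Puro 1 and the groups overlapped (adjusted p = 0.147 and 0.149, limma). Without Hygro 1 the count fell to 3 and the list median to 0.49, and without Hygro 2 they were 12 and 1.67. The fit on 4 libraries alone called none of the 38, the scaling by expression level called 8 and the scaling to the same sum called 34, in each case with none lower. Of all 11974 tested loci, the scaling by expression level called 491 higher and the scaling to the same sum 2553. Of the 38 loci, 5 were higher in both Puro libraries than in all other 10, against 10.7% of all tested loci.

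Genes of DNA replication did not follow. Of 36 tested, 1 (POLE2, a subunit of DNA polymerase epsilon) was higher with all libraries and none held, against 6.45% and 2.71% of all tested loci. The list had a median of -0.00 with all libraries and 0.23 without Puro 1, against 0.05 and -0.04 for loci of like level. The median was -0.43 without Hygro 1 and 0.51 without Hygro 2, so its sign depended on the library left out. It was also 0.72 after scaling to the same sum, where 11 genes were higher, as were 2553 of all 11974 tested loci. That scaling put the median of all tested loci at 0.63. MCM2, a helicase subunit, was at 4.16 and 14 FPKM in Hygro and 2.68 and 7.86 FPKM in Puro (adjusted p = 0.408, limma). PCNA, the sliding clamp, was at 18.6 and 47.6 FPKM in Hygro and 16.8 and 28.3 FPKM in Puro (adjusted p = 0.489, limma). In both, Hygro 2 was the highest library and Puro 1 the lowest. The difference between the mitotic and the replication list was not tested.

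**Figure D3:**
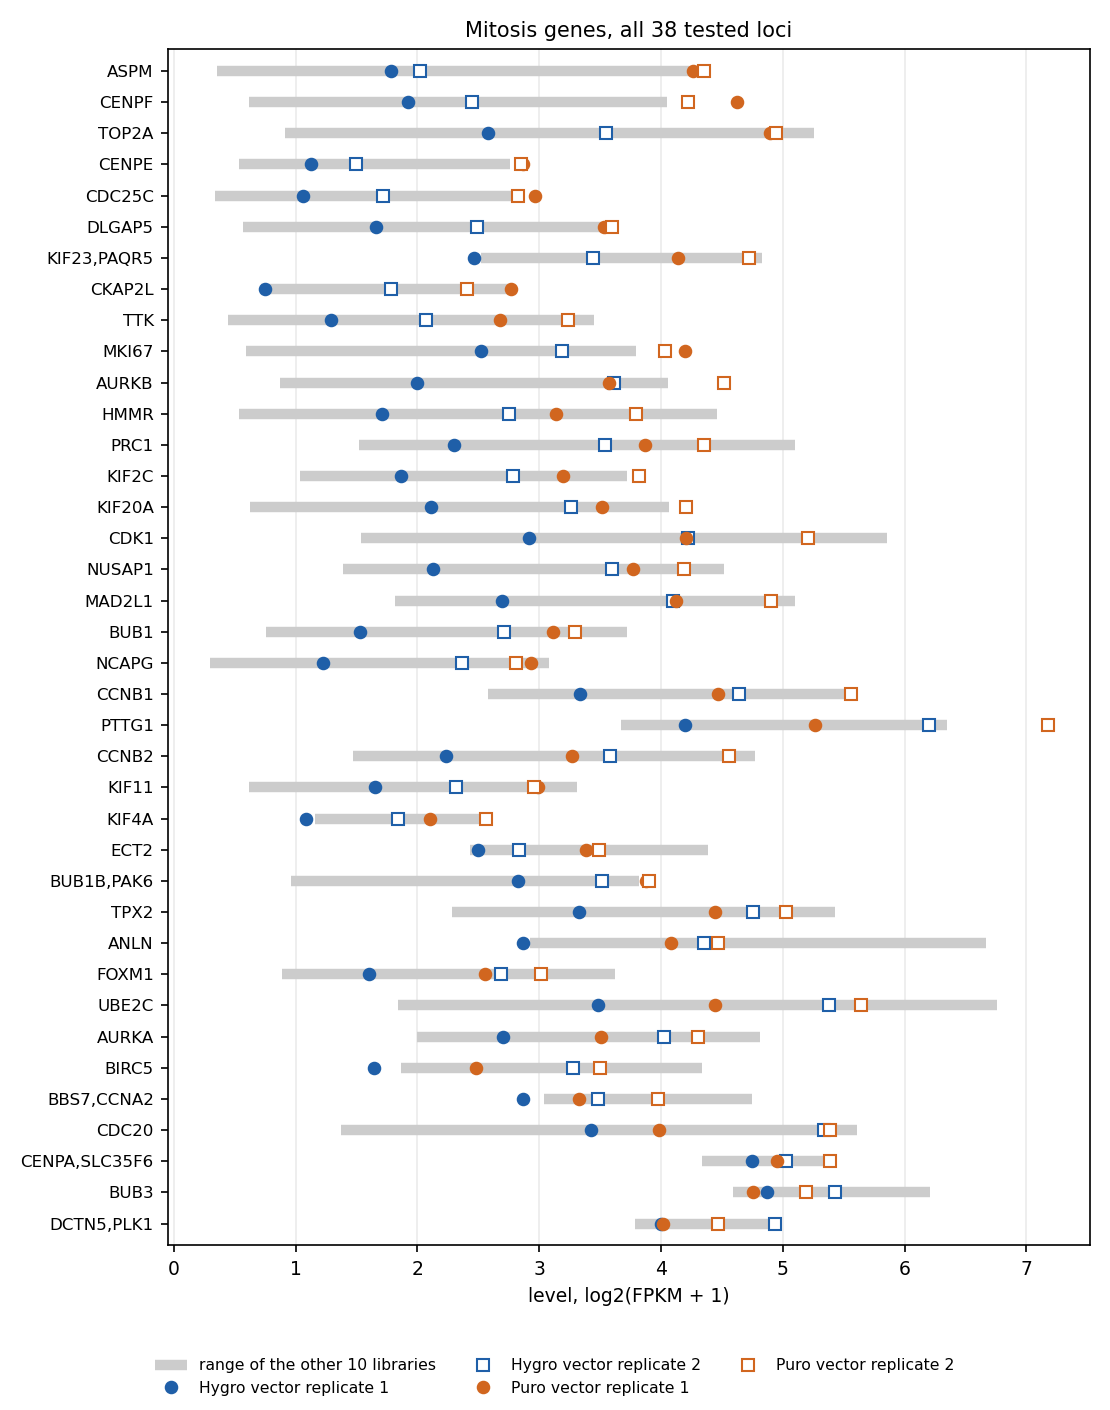
Level as log2(FPKM + 1) on the horizontal axis for all 38 tested mitosis loci, 1 line per locus and 1 point per vector library, with a grey bar for the range of the other 10 libraries. CENPF, ASPM and CENPE are higher in both Puro libraries than in both Hygro libraries, while CDK1 and CCNB1 have Hygro 2 above Puro 1.

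CDKN1A was lower in Puro, at 316 and 353 FPKM in Hygro and 61.7 and 43.7 FPKM in Puro. The difference was -2.66 ± 0.40 (SE, adjusted p = 0.00516, limma) and it passed without each library in turn and under the 3 other scalings. The other 10 libraries ranged from 166 to 1146 FPKM, so both Puro libraries lay below all of them. CCND1, the G1 cyclin, was at 74.5 and 26.6 FPKM in Hygro and 14.9 and 10.1 FPKM in Puro (difference -1.78 ± 0.39, SE, adjusted p = 0.0167, limma, and 0.0342 without Puro 1), and did not pass after scaling to the same sum or by expression level.

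Among 23 targets of p53, 8 were lower, 6 of which held, and 1 was higher, against 10.1%, 3.91% and 6.45% of all tested loci. Their median was -0.45 (-0.38 without Puro 1) against -0.35 (-0.26) for loci of like level. After scaling to the same sum the list median was 0.35, with 3 higher and 2 lower, against a median of 0.63 for all tested loci. Without Hygro 2, 2 were lower and none higher. PLK2, a stress-induced kinase, was at 32.9 and 47.6 FPKM in Hygro and 9.12 and 8.10 FPKM in Puro (difference -2.08 ± 0.34, SE, adjusted p = 0.00713, limma). BTG2, an antiproliferative gene, was at 21.5 and 24.4 FPKM in Hygro and 11.7 and 7.53 FPKM in Puro, without overlap. GDF15, a secreted stress factor, went the other way, at 30.5 and 14.2 FPKM in Hygro and 74.9 and 139 FPKM in Puro (difference 2.23 ± 0.48, SE, adjusted p = 0.0153, limma). PLK2 passed without each library in turn, and BTG2 and GDF15 did not pass without Hygro 2.

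Interferon-stimulated genes were high in Hygro 1 and not in Hygro 2. ISG15, a ubiquitin-like antiviral protein, was at 1642 and 34.3 FPKM in Hygro and 1.66 and 9.09 FPKM in Puro. IFI6 was at 2660 and 10.2 FPKM in Hygro and 8.4 and 12 FPKM in Puro. The summed FPKM of the 29 tested loci was 11350 and 1374 in Hygro and 572 and 1370 in Puro. The sum is led by the most abundant loci, and at 21 of the 29 loci both Hygro libraries were above both Puro libraries, against 32.1% of all tested loci. The median difference of the list was -2.53 with all libraries (-2.46 without Puro 1) against -0.35 (-0.26) for loci of like level. It was -0.79 without Hygro 1 and -3.95 without Hygro 2. Lower calls numbered 4 with all libraries, against 10.1% of all tested loci, 1 without Hygro 1 and 13 without Hygro 2. The other 10 libraries spanned 748 to 15410 summed FPKM.

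GBP1, an interferon-induced GTPase, was the exception within the list. It was at 25.2 and 26.6 FPKM in Hygro and 3.11 and 3.89 FPKM in Puro, with close replicates and no overlap. Its difference of -2.58 ± 0.44 (SE, adjusted p = 0.00786, limma) passed without each library in turn and under the 3 other scalings. Hygro 1 was also the lower Hygro library for CENPF, ASPM, CENPE, TOP2A, MKI67, CDK1 and CCNB1 and the higher for KLK5, KLK6 and KLK7. Whether the interferon genes have a part in those differences was not tested.

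**Figure D4:**
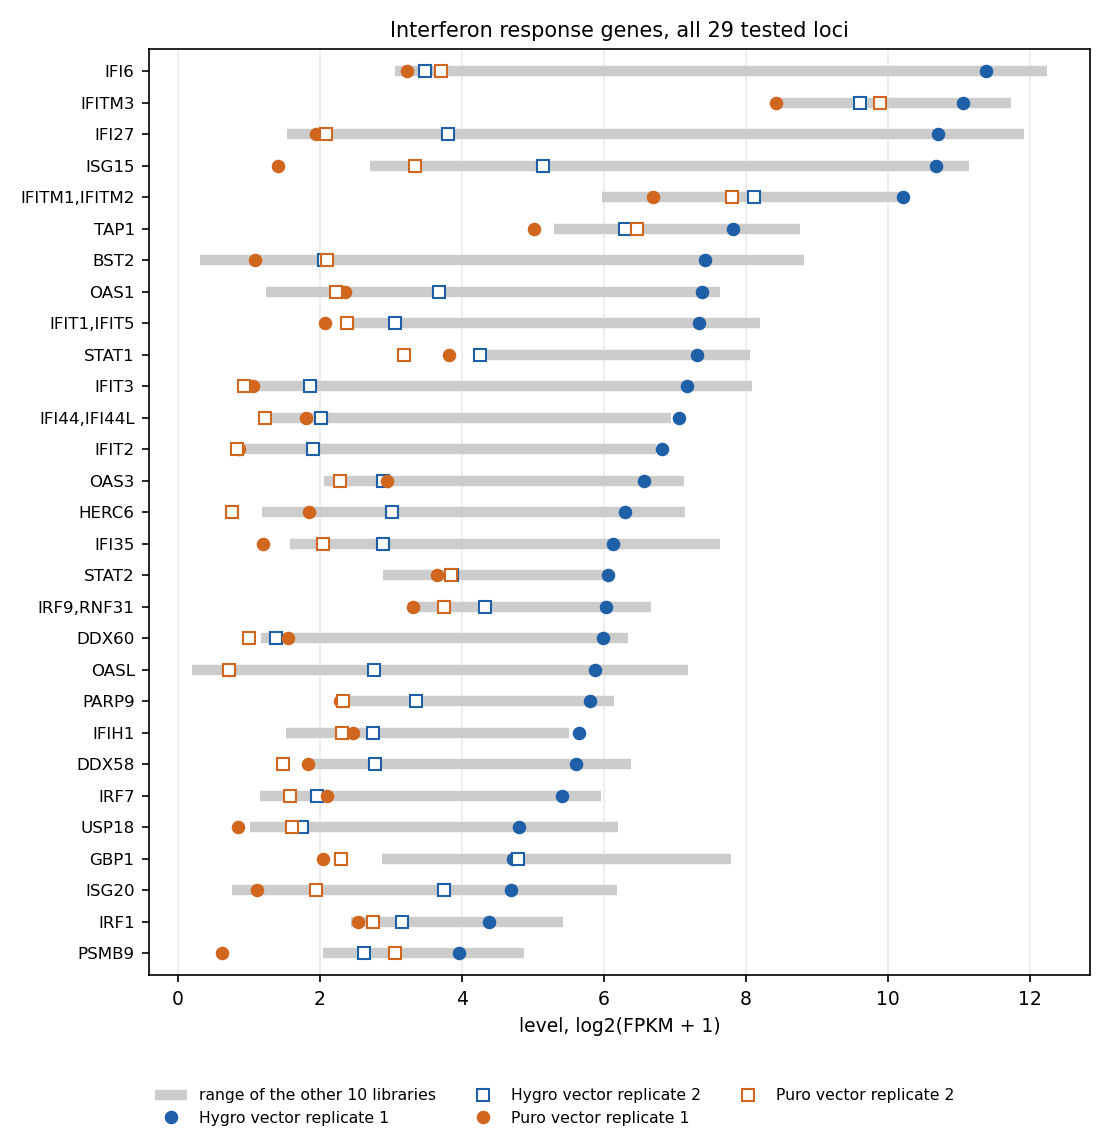
Level as log2(FPKM + 1) on the horizontal axis for all 29 tested interferon response loci, 1 line per locus and 1 point per vector library, with a grey bar for the range of the other 10 libraries. ISG15 and IFI6 are high in Hygro 1 only among the 4 vector libraries, whereas GBP1 is at 25.2 and 26.6 FPKM in Hygro and at 3.11 and 3.89 FPKM in Puro.

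Ligands and targets of the EGF receptor, the pathway on which MCF-10A cells depend for growth, were higher in 5 of 18 cases and lower in 1. Over all tested loci 6.45% were higher and 10.1% lower. Of the higher calls in the list 4 held, against 2.71%. The list median was 0.66 (0.57 without Puro 1) against 0.05 (-0.04) for loci of like level. AREG (amphiregulin), a name that another locus shares, was at 0.668 and 2.23 FPKM in Hygro and 8.59 and 44.5 FPKM in Puro (difference 3.17 ± 0.97, SE, adjusted p = 0.0465, limma). EREG (epiregulin) was at 0.202 and 0.174 FPKM in Hygro and 1.89 and 8.31 FPKM in Puro (difference 2.13 ± 0.47, SE, adjusted p = 0.0169, limma). For both ligands the groups did not overlap and Puro 2 was far above Puro 1. EREG reached 1 FPKM in Puro only, so its direction and lack of overlap were fixed by the filter. AREG passed with all libraries and without Puro 1, and in no other fit without 1 library. EGFR itself was at 24.2 and 23.2 FPKM in Hygro and 39.9 and 46.9 FPKM in Puro. It passed with all libraries (adjusted p = 0.0472, limma) but in no fit without 1 library. A second locus with the name EGFR was at 0.0436 and 0.109 FPKM in Hygro and 4.15 and 53.5 FPKM in Puro, and what it holds is uncertain. This second locus was also tested through its Puro levels alone. Without Hygro 2 no gene of this list passed in either direction.

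Of 23 genes of the unfolded protein and amino acid response 6 were higher and 1 lower, against 6.45% and 10.1% of all tested loci. Among the higher, SLC7A11, PHGDH and HERPUD1 held, against 2.71%. PHGDH did not pass without Hygro 1 or without Puro 2. Of the fits without 1 library, HERPUD1 passed only that without Puro 1. SLC7A11, the cystine transporter, whose name another locus shares, was at 1.79 and 0.577 FPKM in Hygro and 13.3 and 10.9 FPKM in Puro (difference 2.63 ± 0.31, SE, adjusted p = 0.00241, limma). ATF3, a stress-induced transcription factor, went the other way, at 7.94 and 14.2 FPKM in Hygro and 1.28 and 1.34 FPKM in Puro (difference -2.34 ± 0.41, SE, adjusted p = 0.00894, limma). Both genes had close Puro replicates and passed without each library in turn. The list median was 0.68 with all libraries, 1.05 without Puro 1 and -0.04 without Puro 2, against -0.35, -0.26 and -0.49 for loci of like level. Without Hygro 2 or without Puro 2, 2 genes were higher.

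Heat shock genes were lower in 8 of 14 cases and 6 held, against 10.1% and 3.91% of all tested loci. Their median was -1.41 (-1.58 without Puro 1) against -0.81 (-0.45) for loci of like level. Without Hygro 2, 3 were lower, without Puro 2, 4, after scaling to the same sum 4 (median -0.57) and after scaling by expression level 3 (median -0.60). Under these scalings the medians of all tested loci were 0.63 and 0.01. DNAJB1, a cochaperone, was at 91.6 and 104 FPKM in Hygro and 24.6 and 21.7 FPKM in Puro (difference -2.04 ± 0.29, SE, adjusted p = 0.00425, limma). HSPA1B was at 29.3 and 24.7 FPKM in Hygro and 6.15 and 4.45 FPKM in Puro, and its near-identical copy HSPA1A at 13.7 and 22.9 against 3.37 and 2.64 FPKM, a split between copies that is uncertain. The 3 loci did not overlap between groups and passed without each library in turn. At 10 of the 14 loci both Puro libraries lay below all other 10 libraries, against 14.6% of tested loci.

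Of 26 hypoxia and glycolysis genes 4 were higher, all of which held, against 6.45% and 2.71% of all tested loci. Another 6 were lower, of which PKM held, against 10.1% and 3.91%, so the lower call that held was near that share. After scaling by expression level 2 were higher and none lower, and after scaling to the same sum 5 higher and 1 lower. Without Hygro 2, 2 were higher and 1 lower. CA9, a hypoxia-induced carbonic anhydrase, was at 0.986 and 1.15 FPKM in Hygro and 6.69 and 101 FPKM in Puro. VEGFA was at 21.3 and 13.5 FPKM in Hygro and 37.4 and 75.7 FPKM in Puro (adjusted p = 0.0342, limma). PDK1, a kinase that inhibits pyruvate dehydrogenase, was at 1.06 and 0.952 FPKM in Hygro and 5.99 and 3.78 FPKM in Puro, and passed without each library in turn. PKM, the last glycolytic enzyme, was lower, at 1158 and 1246 FPKM in Hygro and 247 and 326 FPKM in Puro. CA9 passed with all libraries and without Puro 1, and in no other fit without 1 library, and VEGFA did not pass without Hygro 2 or without Puro 2. The list median was -0.28 (0.00 without Puro 1) against -0.63 (-0.39) for loci of like level.

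Genes of cholesterol synthesis were lower in 9 of 25 cases, 6 of which held, against 10.1% and 3.91% of all tested loci. Their median was -0.84 (-0.99 without Puro 1) against -0.63 (-0.39) for loci of like level. After scaling to the same sum 1 was higher, none was lower and the median was 0.00, against 0.63 for all tested loci. HMGCS1, an early enzyme of the pathway, was at 21.2 and 55.3 FPKM in Hygro and 12.6 and 2.98 FPKM in Puro (difference -2.27 ± 0.62, SE, adjusted p = 0.0326, limma). IDI1, which isomerises the isoprene unit, was at 54.0 and 78.3 FPKM in Hygro and 21.4 and 10.7 FPKM in Puro. Without Hygro 2 none of the 25 passed, and the scaling by expression level left 1 lower and 1 higher.

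The targets of the factors introduced elsewhere in the series were compared at baseline. Among 26 targets of YAP and TEAD factors 2 were higher and 2 lower, near the 6.45% and 10.1% of all tested loci. Their median was -0.02 (0.17 without Puro 1) against -0.35 (-0.26) for loci of like level. CTGF was at 2.23 and 6.65 FPKM in Hygro and 1.12 and 6.54 FPKM in Puro (adjusted p = 0.717, limma), and CYR61 at 16.4 and 35.1 against 5.85 and 26.9 FPKM (adjusted p = 0.326). For both, each group held a low and a high library and the groups overlapped. AXL, a receptor kinase, was higher in Puro, at 2.75 and 3.36 FPKM in Hygro and 9.61 and 58.9 FPKM in Puro, in the fits with all libraries and without Puro 1. AMOTL2 and IGFBP3 were lower and held, AMOTL2 not without Hygro 2. IGFBP3 was at 3.82 and 7.69 FPKM in Hygro and 0.436 and 0.448 FPKM in Puro and passed without each library in turn. It reached 1 FPKM in Hygro only, so its direction was fixed by the filter.

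Of 29 targets of MRTF and SRF, the actin-sensing factors, 10 were lower with all libraries, against 10.1% of all tested loci, and 1 without Puro 1. That gene was MYH9, non-muscle myosin, at 121 and 241 FPKM in Hygro and 35.3 and 42.4 FPKM in Puro (difference -2.11 ± 0.42, SE, adjusted p = 0.0122, limma). Without Hygro 2 none was called, and without Hygro 1 15 were. SRF itself was at 7.25 and 16.4 FPKM in Hygro and 3.13 and 4.58 FPKM in Puro, and MYL9 at 4.14 and 38.4 against 0.606 and 1.34 FPKM. Hygro 2 was the highest of the 4 libraries for both. At 20 of the 29 loci both Puro libraries lay below all other 10 libraries, against 14.6% of all tested loci. Those 10 libraries carry introduced forms of YAP or MRTFB, so they are no neutral reference for these targets. The median was -1.10 (-0.89 without Puro 1) against -0.63 (-0.39) for loci of like level. After scaling to the same sum it was -0.25, against 0.63 for all tested loci.

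Some named genes of other groups were also far apart. LAPTM5, a lysosomal membrane protein known from blood cells, was at 0.644 and 0.204 FPKM in Hygro and 13 and 22.7 FPKM in Puro (difference 3.70 ± 0.43, SE, adjusted p = 0.00210, limma). It passed every alternative tried, but it reached 1 FPKM in Puro only, so its direction was fixed by the filter. Of the leukocyte markers, PTPRC reached 0.0316 FPKM in Puro 1 and was at 0 in the others, and CD3E and TYROBP were at 0 in all 4. The same list also holds CD68, a lysosomal protein, at 409 to 793 FPKM, CD14 at 9.17 to 139 FPKM, and CSF1R at 29.9 and 12.2 FPKM in Hygro and 2.81 and 2.20 FPKM in Puro, so its summed level was 581 and 816 FPKM in Hygro and 443 and 757 FPKM in Puro. The part of other cells in the LAPTM5 values was not tested. MMP7 (matrilysin) was at 18.9 and 8.38 FPKM in Hygro and 0.992 and 0.199 FPKM in Puro, and LAMB1, a laminin chain, at 29.7 and 24.5 against 78.9 and 220 FPKM. MMP7 passed without each library in turn and LAMB1 did not pass without Hygro 2. MMP7 reached 1 FPKM in Hygro only, which fixed its direction. TWIST1, a mesenchymal factor, was at 0.552 and 0.583 FPKM in Hygro and 3.68 and 3.93 FPKM in Puro (difference 1.62 ± 0.23, SE, adjusted p = 0.00425, limma). TWIST1 reached 1 FPKM in Puro only, which fixed its direction. VIM (vimentin) was at 0.742 and 2.69 FPKM in Hygro and 1.32 and 15.3 FPKM in Puro, with overlap between the groups. It did not pass with all libraries (adjusted p = 0.274, limma) and was higher without Puro 1 (difference 2.68, adjusted p = 0.0462).

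Housekeeping and signalling lists gave some calls that held, where 2.71% of all tested loci held as higher and 3.91% as lower. Of 16 genes of the oxidative stress response 1 was higher (SLC7A11) and 6 lower, of which 2 held. OSGIN1, a growth inhibitor induced by oxidative stress, was at 2.75 and 3.60 FPKM in Hygro and 0.779 and 0.762 FPKM in Puro (difference -1.23 ± 0.24, SE, adjusted p = 0.0116, limma), and did not pass without Hygro 2. OSGIN1 reached 1 FPKM in Hygro only, which fixed its direction. Of 20 lysosome and autophagy genes 6 were lower and 3 held, with ATP6V0D1, a subunit of the proton pump, at 86.0 and 109 FPKM in Hygro and 22.8 and 19.4 FPKM in Puro. Of 25 ribosome biogenesis genes 3 were lower and 2 held, with RRP12, a ribosome export factor, at 22.4 and 26.3 FPKM in Hygro and 8.56 and 9.43 FPKM in Puro. ATP6V0D1 and RRP12 had close replicates and passed without each library in turn, but RRP12 did not pass after scaling to the same sum. The medians of the oxidative stress, lysosome and ribosome biogenesis lists were -0.57, -0.64 and -0.55, against -0.35, -0.63 and -0.35 for loci of like level. After scaling to the same sum they were 0.21, 0.16 and 0.29, against 0.63 for all tested loci. Without Hygro 2, 1 gene was lower in each of these 3 lists. Of 23 genes of oxidative phosphorylation 1 was lower. Over all tested loci 10.1% were lower with all libraries, and the ribosome biogenesis count of 3 in 25 was near that share. The oxidative stress count of 6 in 16 and the lysosome count of 6 in 20 were above it. JAG1, a Notch ligand, was higher, at 8.16 and 8.30 FPKM in Hygro and 18.2 and 37.7 FPKM in Puro, and did not pass without Hygro 2. MT1E, a metal-binding metallothionein, was at 158 and 182 FPKM in Hygro and 428 and 1288 FPKM in Puro, and passed with all libraries (adjusted p = 0.0498, limma) and without Puro 1, and in no other fit without 1 library.

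Some of the higher calls were far higher in Puro 1 than in Puro 2. Over all tested loci, 18.8% differed by more than 1 on the log2(FPKM + 1) scale between the Puro libraries, in either direction. Of the 772 loci called higher, 232 were more than 2 times as high in Puro 1 as in Puro 2, as were 59 of the 324 that held. NEAT1, a nuclear long noncoding RNA, was at 50.9 and 26.4 FPKM in Hygro and 773 and 110 FPKM in Puro. It passed with all libraries (adjusted p = 0.0381, limma) and not without Puro 1 (adjusted p = 0.240). PVT1, another long noncoding RNA, was at 0.509 and 0.256 FPKM in Hygro and 26.5 and 3.51 FPKM in Puro and passed in both fits, but not without Hygro 2. A locus named KMT2A is listed at 0 in both Hygro libraries and was at 21.3 FPKM in Puro 1 and 1.41 FPKM in Puro 2. PVT1 and KMT2A are names that other loci share, and both loci reached 1 FPKM in Puro only, which fixed their direction. Unnamed loci took 58.8% of the FPKM sum in Puro 1 and 10.2% in Puro 2, and the part of that share in these values was not tested.

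The 468 loci that held as lower were set against the other 10 libraries. Both Hygro libraries were above all 10 at 128 of them (27.4%), against 4.73% of all tested loci, and both Puro libraries were below all 10 at 231 (49.4%), against 14.6%. Of the 324 that held as higher, both Puro libraries were above all 10 at 201 (62%), against 10.7%. These loci were chosen for a difference between the same vector libraries. Shares above those of all tested loci therefore follow in part from that choice and are given as description only. The comparison with the 10 libraries involves introduced genes and was not tested.

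**Figure D5:**
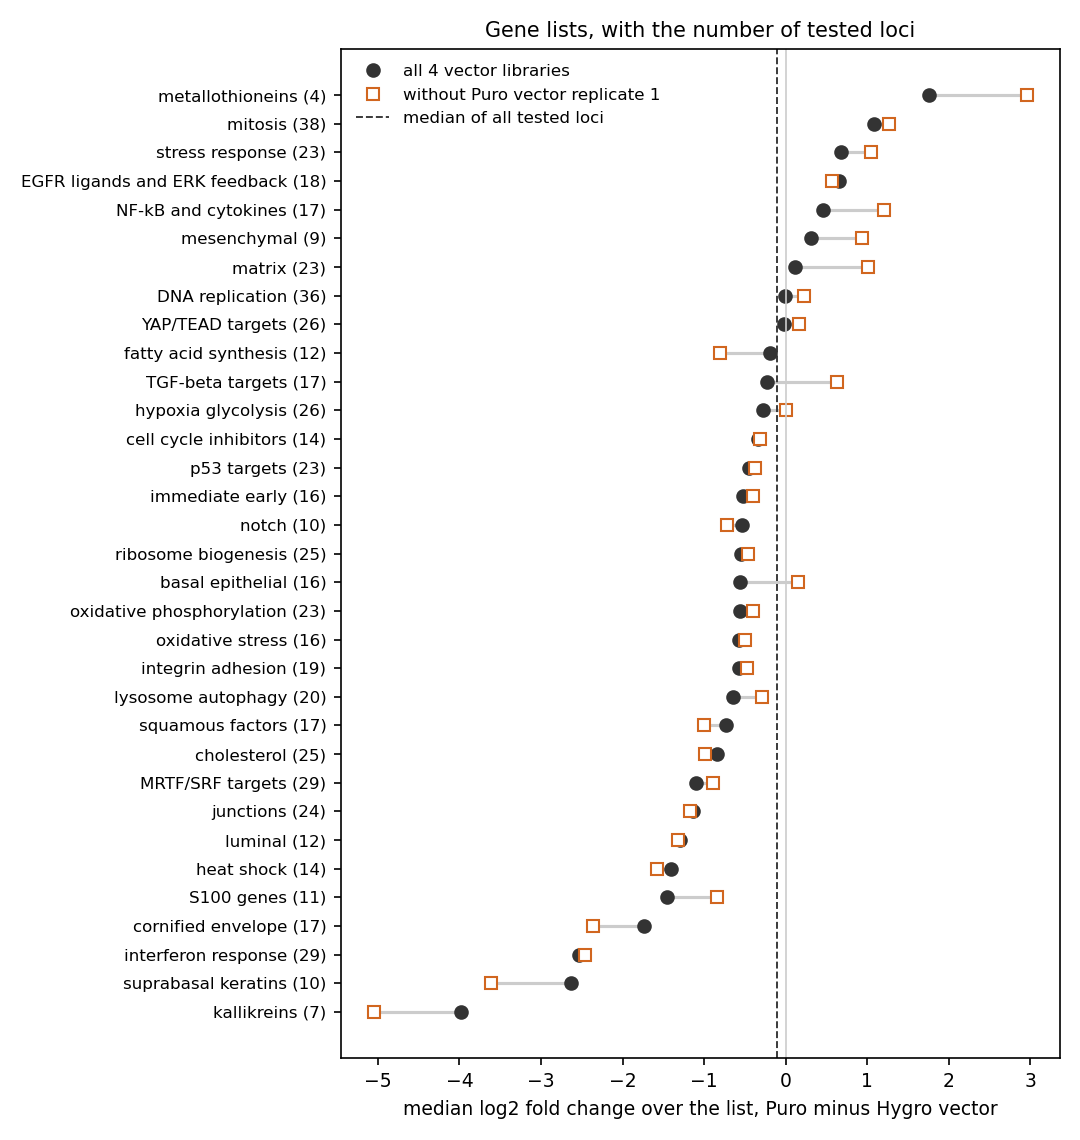
Median difference between Puro and Hygro libraries (log2 of FPKM + 1) over each gene list on the horizontal axis, filled points with all 4 vector libraries and open squares without Puro 1, with the number of tested loci in brackets and a dashed line at the median of all tested loci. Kallikreins, with a median of -3.98, lie lowest and mitosis genes, with a median of 1.08, lie above 0 with the deposited scaling, while the median changed sign in 17 of 34 lists when libraries were scaled to the same sum. That scaling moved the median of all tested loci to 0.63.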

How the data were processed

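RNA of 14 MCF-10A libraries was poly(A)-selected and sequenced as stranded paired reads on an Illumina NextSeq, per the labels' protocols. The authors deposited FPKM per locus, for which the submitters' processing notes list Bowtie, TopHat, Cufflinks, Cuffnorm and the build hg19. Versions, annotation and library scaling are not given in the sources used here. FPKM hold no counts, so no counting interval is given, and short loci can be high from few reads.

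Named loci with at least 1 FPKM in 2 of the 4 vector libraries were tested on log2(FPKM + 1), a scale that understates changes of low genes, with limma 3.58.1 in R 4.3.3. All 14 libraries entered 1 fit on 7 groups (two-sided, empirical Bayes with an intensity trend), with Benjamini-Hochberg adjustment and a threshold of 0.05. At 5257 loci along the genome, 1653 of them tested, MRTFB dN dPY replicate 1 is empty and was treated as missing. The fit was tested on simulated data.

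Genes were named by rule: the 8 largest changes in each direction that passed with and without Puro 1, up to 4 members per list that did so, the 5 largest in each direction lost without it, and a fixed set. Genes named outside it were chosen after their values were seen. The members and lists were chosen with earlier results of these data known. Of 752 genes in 38 lists 633 were tested, 73 genes lie in loci with several names, and 990 tested loci share a name. The fit had no block for the replicate number. Alternatives were leaving out each library, the 4 vector libraries alone, a pseudocount of 0.1, no filter, a filter over 14 libraries, 3 scalings, no trend, a block and other treatment of zeros. Python 3.11.15, pandas 2.3.3 and matplotlib 3.10.9 made the tables of sequences and the figures. Some results are not reported here.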

Additional observations from a re-analysis of the deposited data

How the results depend on the processing

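The number of loci higher in Puro was 172 to 1220, and lower 354 to 1322, when each of the 4 libraries was left out in turn, against 772 and 1209. The lowest counts, 172 and 354, came without Hygro 2. The fit on the 4 vector libraries called 7 and 7 (2559 at unadjusted p under 0.05), scaling to the same sum 2553 and 256, and a scaling by expression level, chosen after seeing the data, 491 and 658. Keeping the zeros of the empty part of MRTFB dN dPY replicate 1 gave 522 and 764. A pseudocount of 0.1, no filter, a filter over 14 libraries, the median of ratios, no trend and isolated zeros as missing (also chosen after seeing the data) kept both counts within 1.5 times. Of 193 list or named genes called, 36 passed without each library in turn and 31 also under the 3 scalings. Among these called genes SVIL, an actin-binding protein, was the only one whose direction reversed, to 0.042 (adjusted p = 0.936, limma) after scaling to the same sum from -0.76. Medians of 13 of 34 lists kept their sign under all alternatives.

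The labels number the replicates but do not say that a number marks a shared culture or day. The correlation of the replicate 1 minus 2 difference between Hygro and Puro was 0.270 across loci, from a single pair of pairs. With the replicate number as a block, 906 loci were higher and 1375 lower, mitotic genes went from 10 to 19 higher and interferon genes from 4 to 15 lower. The depth in reads is unknown, which limits low loci most.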
